A study of Saccharomyces cerevisiae with 4 samples.

Results

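The genes described here are 38 genes of the yeast pheromone response and of mating, taken by name from a list of pathway members out of 7126 features in the count files. All 38 were matched to a feature, and all were read at least 60 times on their own strand over both temperatures, above the minimum of 20 reads used for every feature. They were measured by PAR-CLIP of Mip6, an RNA-binding protein of Saccharomyces cerevisiae, in which 4-thiouracil taken up by the cells lets ultraviolet light crosslink RNA to the protein. All cells carried HTB-tagged Mip6 (strain Mip6-HTB) and grew at 30 °C in synthetic glucose medium to which uracil, adenine and biotin were added. One group stayed at 30 °C with 4-thiouracil for 45 min, and the other had 25 min of it at 30 °C followed by 20 min at 39 °C. Light of 365 nm was given for 15 min in both. The 4 samples are a minus-strand and a plus-strand file of each temperature, so there was 1 library per temperature, no replicate and no test between temperatures, and no p-value is given.

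Haploid yeast cells are of mating type a or α, and each type secretes a peptide pheromone that the other senses. The pheromone binds a receptor coupled to a G protein, whose βγ part starts a cascade of protein kinases held on a scaffold. The last kinases of the cascade act on the transcription factor Ste12, the cell cycle arrests before replication, and partners adhere and fuse. Some of these genes are transcribed in a cells alone (a-specific), some in α cells alone (α-specific), and some in both haploid types but not in a/α diploids (haploid-specific). Mip6 binds Mex67, the receptor that carries mRNA out of the nucleus.

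Reads in features came to 11657228 at 30 °C and 6950540 at 39 °C over both files of a temperature. A level below is the number of reads on the gene's own strand per 1000000 reads of that total (CPM), and levels of different genes are compared per kilobase of reading frame. A ratio is log2 of the level at 39 °C over that at 30 °C, computed after adding 0.5 to each count. Its 95% interval is an exact binomial one that treats reads as independent. These intervals hold counting error alone and leave out any spread between cultures, and PCR copies are not independent molecules. A count of 0 would allow a level of up to 0.257 CPM in the 30 °C library and 0.432 CPM in the other. Neither input RNA nor an untagged strain was among the samples, so levels carry the amount of each mRNA together with its crosslinking, and these cannot be told apart.

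The labels used here give no mating type, so genes of known specificity are given first. Reads per kilobase were higher on a-specific genes than on α-specific genes at both temperatures. The 6 a-specific members ranged from 117 to 1110.4 CPM per kilobase at 30 °C and from 51.8 to 508 at 39 °C. The α-specific members STE3, the receptor for a-factor, and SAG1, the α agglutinin, stayed between 9.41 and 15.3 CPM per kilobase over both temperatures. The α-factor genes, which are no members, were at the bottom, with 10 and 6 own-strand reads at 30 °C and 39 °C for MF(ALPHA)1 and 11 and 5 for MF(ALPHA)2. The 7 haploid-specific members lay between 40.9 and 406 CPM per kilobase at 30 °C. The median of all 6162 tested features was 74.1 CPM per kilobase at 30 °C and 73.5 at 39 °C. Not every a-specific gene was above it. AGA2 at 39 °C was below the median. ASG7, an a-specific gene that is no member, was below it at both temperatures, with 59.8 and 32.0.

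**Figure D1:**
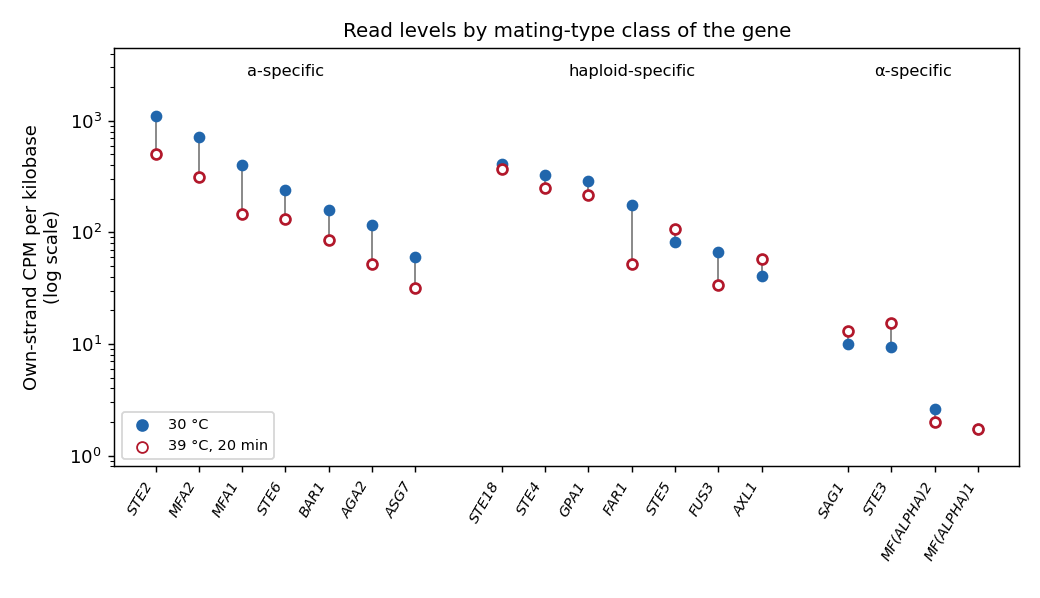
Own-strand CPM per kilobase of reading frame (vertical axis, log scale) of 7 a-specific, 7 haploid-specific and 4 α-specific genes, each at 30 °C (filled blue) and 39 °C (open red), with 1 library per temperature. All 7 a-specific genes are lower at 39 °C, from STE2 with 1110.4 and 508 down to ASG7 with 59.8 and 32.0. The α-factor genes are the lowest at both temperatures, and for MF(ALPHA)1 the points coincide.

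Of the 38 members, 7 were at least 2-fold lower after heat, namely FAR1, AGA1, MFA1, FUS1, AGA2, MFA2 and STE2, and none was at least 2-fold higher. Across all tested features 2.69% were 2-fold lower and 4.4% were 2-fold higher. The other 31 members lay within 2-fold. At a limit of 1.5-fold, 12 members were lower and 1 higher, against 11.9% and 11.5% of all tested features. By the strand of the gene, 5 of 25 plus-strand members and 2 of 13 minus-strand members were at least 2-fold lower, against 2.86% and 2.52% of all tested features on those strands. The counting interval of the ratio lay below no change for 22 members and above it for 11, against 38.8% and 31.5% of all tested features. The median ratio of the members was -0.28 on the log2 scale, beside -0.03 over all tested features. Together the members held 0.678% of the reads in features before heat (Clopper-Pearson 95% interval 0.673 to 0.683) and 0.475% after it (0.470 to 0.480).

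**Figure D2:**
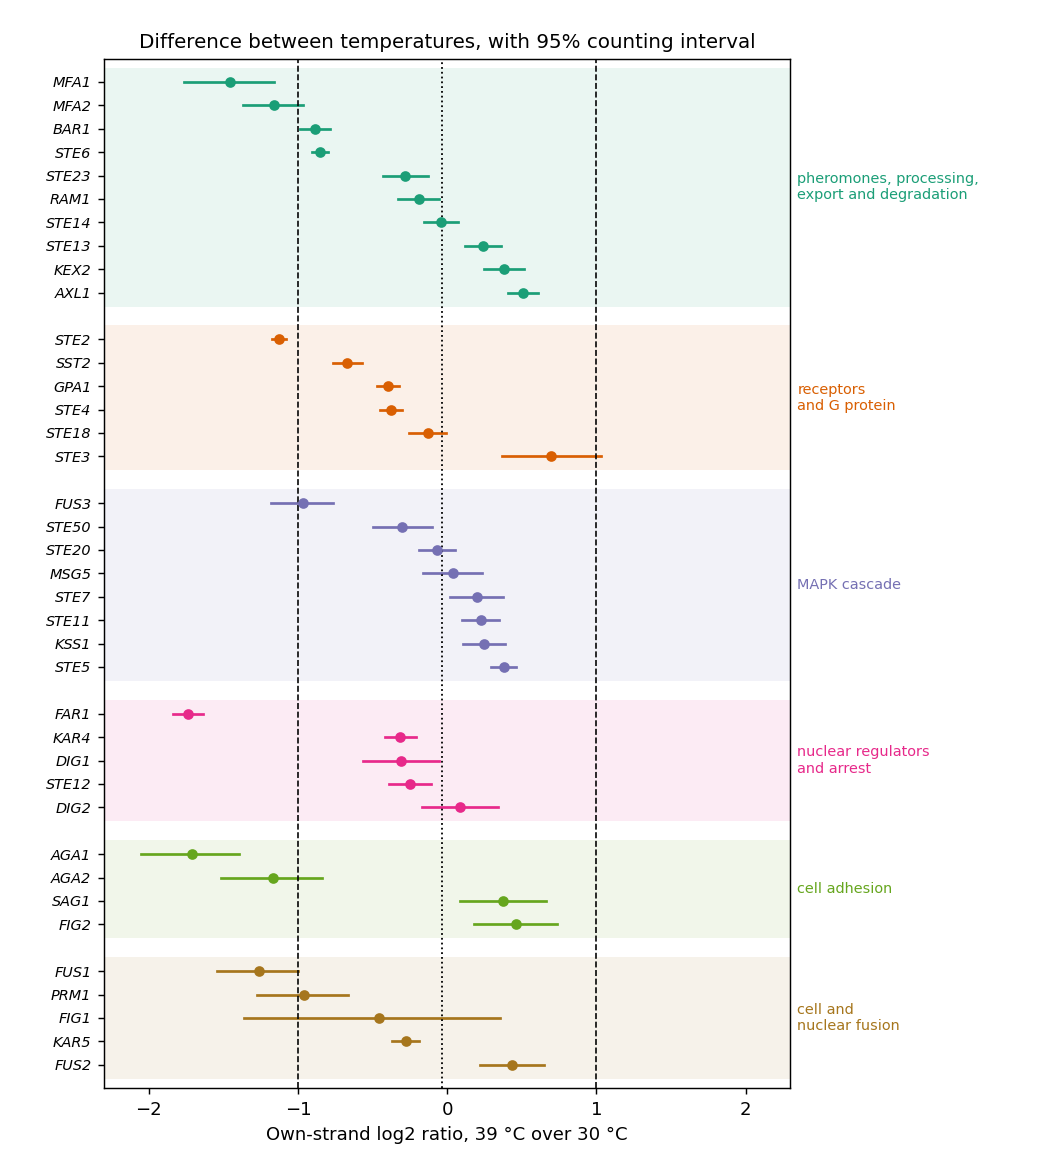
Own-strand log2 ratio of 39 °C over 30 °C for each of the 38 members (horizontal axis), grouped by role, with bars for the 95% counting interval. Dashed lines mark 2-fold and the dotted line the median of all tested features, -0.03. Of the members, 7 lie left of the lower dashed line, with FAR1 at -1.74 farthest, and none lies right of the upper one.

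The pheromone genes and the genes that export or destroy pheromone made up the lower end of the first role group. The enzymes that mature pheromones lay closer to no difference. The group's 10 members had a median ratio of -0.24, with 2 at least 2-fold lower, beside -0.03 and 2.69% over all tested features. MFA1 and MFA2 both encode a-factor, the lipid-modified pheromone of a cells. MFA1 (YDR461W, chromosome IV, 1385176 to 1385286, build R64) had 516 own-strand reads at 30 °C and 112 at 39 °C, which are 44.3 and 16.1 CPM. Its log2 ratio was -1.45 (95% interval -1.77 to -1.16). MFA2 (YNL145W, chromosome XIV, 352414 to 352530) had 966 and 257 reads, or 82.9 and 37.0 CPM, and a ratio of -1.16 (-1.37 to -0.96). The ratios of the a-factor genes differed by -0.29 (-0.66 to 0.07), an interval that includes no difference. Per kilobase, the level of MFA1 was 0.563 times that of MFA2 at 30 °C and 0.459 times at 39 °C. Their reading frames of 111 and 117 bases are short and code for the same pheromone, so reads split between similar stretches are a point of uncertainty.

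STE6, the transporter that exports a-factor, was among the most heavily read members. It had 10774 reads at 30 °C and 3559 at 39 °C, or 924 and 512 CPM, a ratio of -0.85 (-0.91 to -0.80) that stayed within 2-fold. BAR1, the secreted protease with which a cells degrade α-factor, had 279 and 151 CPM and a ratio of -0.89 (-0.99 to -0.79). All 4 a-specific genes of this role were lower at 39 °C by 1.8-fold or more, of which MFA1 and MFA2 passed 2-fold.

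The processing enzymes lay closer to no difference. RAM1, a subunit of the farnesyltransferase that modifies a-factor, had a ratio of -0.19 (-0.33 to -0.05), and STE14, which methylates it, -0.04 (-0.16 to 0.07). The a-factor proteases differed from each other, with STE23 at -0.28 (-0.43 to -0.13) and AXL1 at 0.51 (0.40 to 0.61). Their ratios differed by -0.79 (-0.97 to -0.61). The level of AXL1 went from 148 to 211 CPM, the highest ratio of this role. The α-factor proteases KEX2 and STE13, which also act in general secretion in both cell types, had ratios of 0.38 (0.25 to 0.52) and 0.24 (0.12 to 0.36).

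**Figure D3:**
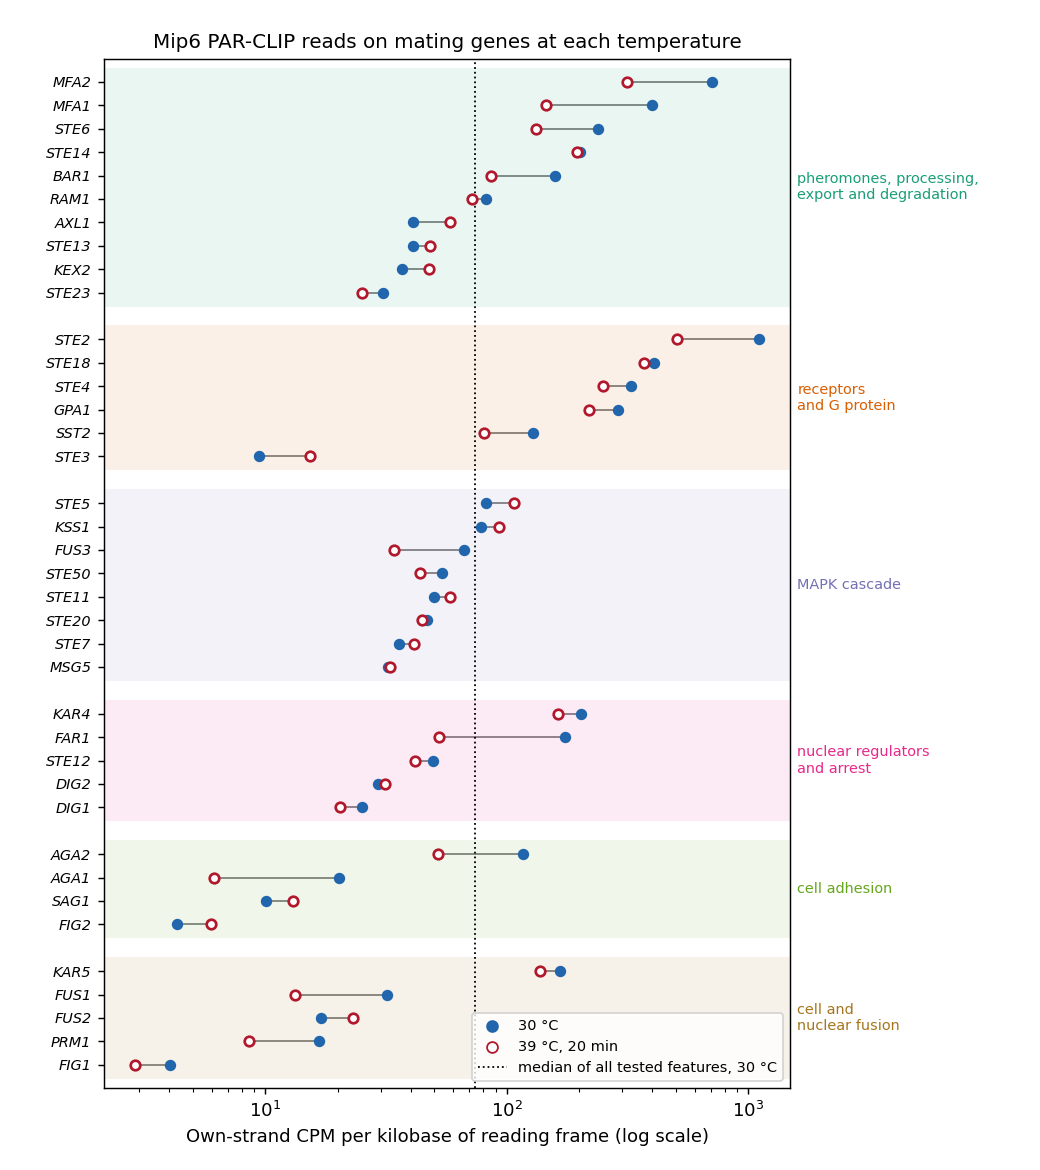
Own-strand CPM per kilobase of reading frame (horizontal axis, log scale) of the 38 members by role at 30 °C (filled blue) and 39 °C (open red), with 1 library per temperature. The dotted line is the median of all tested features at 30 °C, 74.1. Receptor, G protein and pheromone genes reach up to 1110.4, while adhesion and fusion genes other than AGA2 and KAR5 lie below 32.

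Among receptors and G protein genes the a-cell receptor carried most reads of any member and differed most between temperatures. STE2, the α-factor receptor (YFL026W, chromosome VI, 82580 to 83875), had 16775 reads at 30 °C and 4576 at 39 °C, or 1439 and 658 CPM. The ratio was -1.13 (-1.18 to -1.08), and per kilobase STE2 was number 92 of the tested features at 30 °C and number 274 at 39 °C. STE3, its counterpart in α cells, had 155 and 150 reads, which at the lower depth of the 39 °C library correspond to 13.3 and 21.6 CPM. Its ratio of 0.70 (0.37 to 1.03) was the highest of all 38 members. Per kilobase STE2 exceeded STE3 118 times at 30 °C and 33.3 times at 39 °C.

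The subunits of the G protein were lower by less. GPA1, the α subunit that holds the pathway off, had levels of 409 and 310 CPM, with a ratio of -0.40 (-0.47 to -0.33). STE4, the β subunit, had 415 and 319 CPM and a ratio of -0.38 (-0.45 to -0.31). The ratios of the GPA1 and STE4 genes differed by -0.02 (-0.13 to 0.08), and the level of GPA1 per kilobase was 0.883 times that of STE4 at 30 °C and 0.871 times at 39 °C. STE18, the γ subunit, had 135 and 123 CPM and a ratio of -0.13 (-0.25 to -0.01). SST2, which speeds up inactivation of the α subunit, had 269 and 169 CPM and a ratio of -0.67 (-0.77 to -0.57).

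The kinase cascade was the only role group whose median ratio was above 0, at 0.12, beside -0.03 over all tested features. Within 2-fold lay 92.9% of all tested features and all 8 members of the cascade. STE5, the scaffold that holds the kinases together, was the most read of them, with 226 CPM before and 294 CPM after heat and a ratio of 0.38 (0.30 to 0.46). The kinases that act in sequence after the G protein had ratios of -0.07 (-0.19 to 0.05) for STE20, 0.22 (0.10 to 0.35) for STE11 and 0.20 (0.02 to 0.38) for STE7. STE50, an adaptor of Ste11, had -0.30 (-0.50 to -0.11). MSG5, a phosphatase that acts on the last kinase, had 0.04 (-0.17 to 0.23), with 47.2 and 48.3 CPM.

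The last kinases of the cascade differed from each other. FUS3, the kinase dedicated to mating, had 824 reads at 30 °C and 251 at 39 °C, or 70.7 and 36.1 CPM, and a ratio of -0.97 (-1.18 to -0.76), just inside 2-fold. KSS1, its relative that also acts in filamentous growth, had 1009 and 713 reads, or 86.6 and 103 CPM, and a ratio of 0.25 (0.10 to 0.38). The difference between the ratios of FUS3 and KSS1 was -1.21 (-1.47 to -0.96). Per kilobase, FUS3 was read 0.851 times as much as KSS1 at 30 °C and 0.367 times at 39 °C. Between STE5 and FUS3, whose products bind each other, the difference of ratios was 1.35 (1.13 to 1.57).

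In the nucleus, the arrest gene stood apart from the transcription regulators. FAR1, whose product inhibits the cyclin-dependent kinase and anchors polarity on pheromone (YJL157C, chromosome X, 123836 to 126328), had 5085 reads at 30 °C and 910 at 39 °C. These are 436 and 131 CPM, 3.33-fold apart, with a ratio of -1.74 (-1.84 to -1.63). FAR1 was the lowest ratio of all members and number 18 from the bottom of the 6162 tested features. STE12, the pathway's transcription factor, had 102 and 86.2 CPM and a ratio of -0.25 (-0.39 to -0.11). Its inhibitors DIG1 and DIG2 had ratios of -0.31 (-0.57 to -0.06) and 0.09 (-0.17 to 0.34), which differed by -0.40 (-0.76 to -0.03). KAR4, a regulator of nuclear fusion genes, had 204 and 164 CPM and a ratio of -0.31 (-0.42 to -0.21).

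Both subunit genes of the a agglutinin were at least 2-fold lower at 39 °C, and the other adhesion genes were not. AGA1, the cell wall anchor of the a agglutinin (YNR044W, chromosome XIV, 703699 to 705876), had 513 reads at 30 °C and 93 at 39 °C, or 44.0 and 13.4 CPM. Its ratio of -1.71 (-2.05 to -1.40) was next to that of FAR1 as the lowest among the members. AGA2, the binding subunit of the a agglutinin (YGL032C, chromosome VII, 436570 to 436833), had 359 and 95 reads, or 30.8 and 13.7 CPM, and a ratio of -1.17 (-1.51 to -0.84). The α agglutinin gene SAG1 had levels of 19.6 and 25.5 CPM, a ratio of 0.38 (0.08 to 0.66). FIG2, a cell wall adhesin of mating cells, had 20.8 and 28.6 CPM and a ratio of 0.46 (0.18 to 0.73).

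Fusion genes were read little, apart from KAR5. FUS1, a membrane protein of the fusion site (YCL027W, chromosome III, 71803 to 73341), had 572 reads at 30 °C and 142 at 39 °C, or 49.1 and 20.4 CPM, and a ratio of -1.26 (-1.54 to -0.997). FUS2, which acts at the same site inside the cell, had 404 and 326 reads, or 34.7 and 46.9 CPM, and a ratio of 0.44 (0.22 to 0.65). The ratios of FUS1 and FUS2 differed by -1.70 (-2.05 to -1.35). PRM1, a protein of plasma membrane fusion, had 386 and 118 reads and a ratio of -0.96 (-1.27 to -0.66), also just inside 2-fold. FIG1, a membrane protein of mating cells, was the least read member, with 42 reads at 30 °C and 18 at 39 °C. Its ratio of -0.45 had an interval from -1.36 to 0.35, so no difference was detectable at this depth. KAR5, which acts in fusion of the nuclei, had 252 and 208 CPM and a ratio of -0.28 (-0.37 to -0.19).

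By class rather than role, the 6 a-specific members all had lower levels at 39 °C, with ratios from -1.45 to -0.85 and a median of -1.15, and 4 of them passed 2-fold. The 7 haploid-specific members had a median of -0.38 and ran from -1.74 for FAR1 to 0.51 for AXL1, with 1 past 2-fold. The 2 α-specific members had ratios of 0.38 and 0.70. Of all tested features, 2.69% were at least 2-fold lower and 4.4% at least 2-fold higher. As a share of reads in features, the a-specific members held 0.280% at 30 °C (0.277 to 0.283) and 0.139% at 39 °C (0.136 to 0.142). These classes overlap with the roles above, so they describe the same values again.

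Several members also had many reads on the strand opposite the gene, and in some of them these reads did not go the same way as those of the own strand. At least 20% of a feature's reads lay on the other strand for 8 of 38 members at 30 °C and for 14 at 39 °C, against 20.1% and 23.9% of all tested features. Among adhesion and fusion genes these were 5 of 9 members at 30 °C and 7 of 9 at 39 °C. None of the 38 reading frames overlaps another gene of the RefSeq annotation. Features without an entry there were not checked for overlap, and reads ambiguous between features are left out of all counts.

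**Figure D4:**
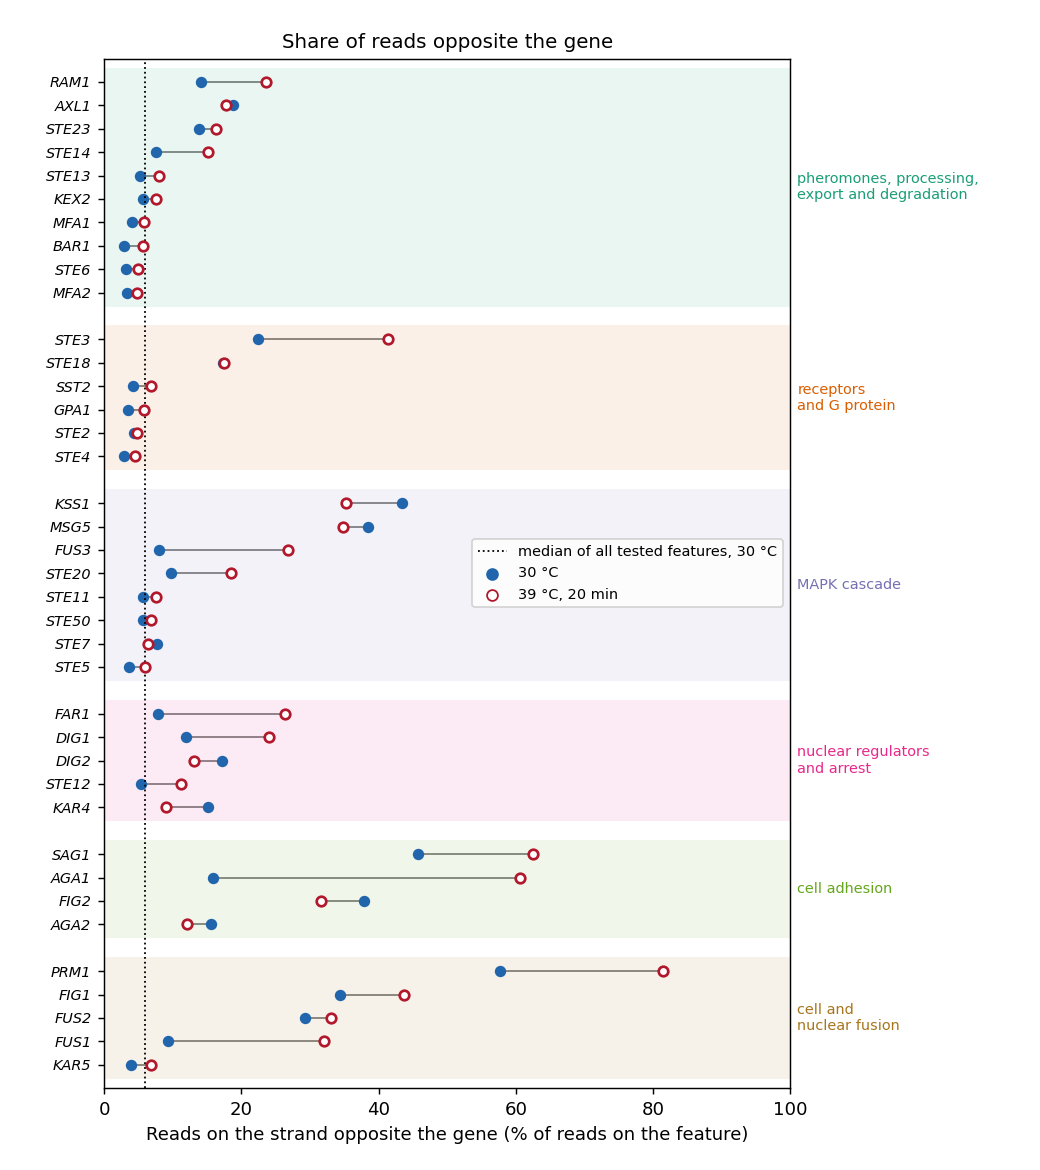
Reads on the strand opposite the gene as a percentage of all reads on the feature (horizontal axis) for the 38 members by role at 30 °C (filled blue) and 39 °C (open red). The dotted line is the median of all tested features at 30 °C, 6.01%. PRM1 has the highest share at 39 °C with 81.4%, and the share of AGA1 goes from 15.9% to 60.6%.

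The ratio was below 0 on the gene's own strand and above 0 on the other for 16 of the 38 members, against 37.5% of all features with enough reads on both strands. The reverse held for STE7, KSS1, MSG5 and DIG2, 4 in all, against 5.27%. Both ratios were below 0 for 9 members and both above 0 for another 9, against 15.7% and 41.5% of those features. With both counting intervals clear of 0, the own strand was lower and the other higher for 10 members, namely STE12, GPA1, FAR1, FUS1, FUS3, AGA1, KAR5, PRM1, RAM1 and DIG1, against 9.74% of those features. The opposite pattern with both intervals clear held for KSS1 alone among the members, against 0.828% of those features.

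PRM1 had more reads opposite the gene than on it, with 527 at 30 °C and 517 at 39 °C. The other-strand share of PRM1 was 57.7% before heat (Clopper-Pearson 95% interval 54.4 to 61) and 81.4% after it (78.2 to 84.4). For AGA1 the other strand had 97 reads at 30 °C and 143 at 39 °C, a ratio of 1.30 (0.92 to 1.69) against -1.71 on its own strand. Its other-strand share went from 15.9% (13.1 to 19.1) to 60.6% (54.0 to 66.9). FUS1 with 59 and 67 opposite reads and a ratio of 0.93 (0.40 to 1.46), and FUS3 with 72 and 92 and a ratio of 1.1 (0.64 to 1.57), likewise had higher levels on the other strand and lower levels on their own. In FAR1 the other strand had 435 and 326 reads, a ratio of 0.33 (0.12 to 0.54).

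Of the members with both ratios on the same side of 0, 5 are given here. In STE2 the opposite strand had 773 reads at 30 °C and 229 at 39 °C, a ratio of -1.01 (-1.23 to -0.79), and its share of the feature's reads was 4.41% and 4.77%. In STE3 it had 45 and 106 reads with a ratio of 1.97 (1.47 to 2.52), and in SAG1 193 and 295 reads with a ratio of 1.36 (1.09 to 1.63). In KAR4 the opposite strand was lower by more than the gene's own, with 424 and 113 reads and a ratio of -1.16 (-1.47 to -0.86). AGA2 had 66 and 13 opposite reads and a ratio of -1.55 (-2.58 to -0.73). KSS1 and MSG5 are not among these. KSS1 had an opposite share of 43.4% at 30 °C and a ratio of -0.25 (-0.43 to -0.07) on that strand against 0.25 on its own. MSG5 had a share of 38.5% and ratios of -0.19 (-0.46 to 0.08) on the opposite strand and 0.04 on its own, and both intervals include no difference.

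**Figure D5:**
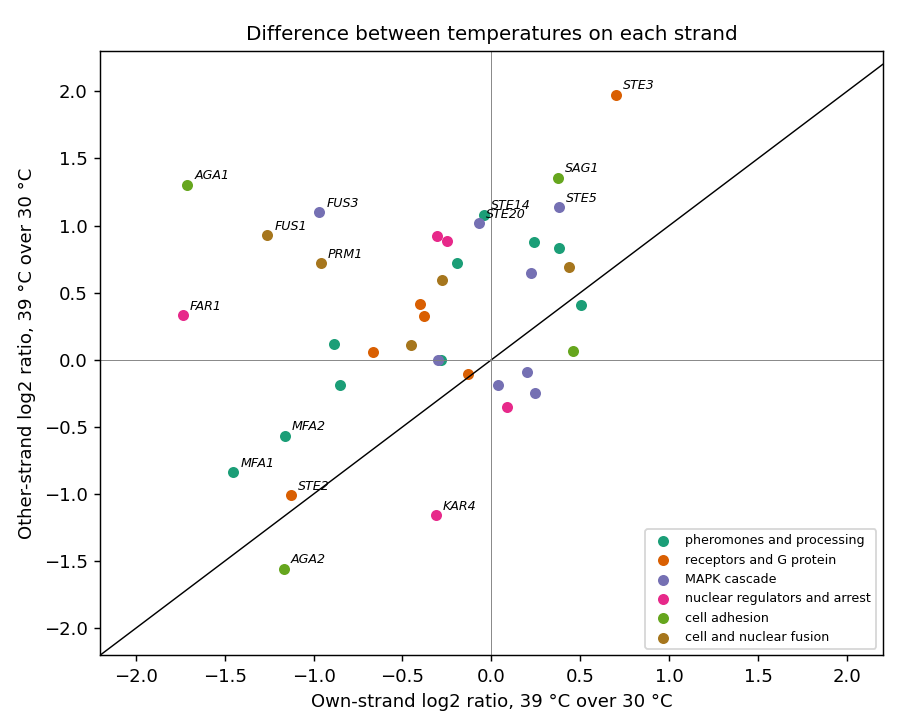
Log2 ratio of 39 °C over 30 °C on the gene's own strand (horizontal axis) and on the opposite strand (vertical axis), 1 point per member, coloured by role, with the line of equal ratios. In the upper left, below 0 on their own strand and above 0 on the other, lie 16 members, AGA1, FUS1, FUS3, PRM1 and FAR1 among them, while STE2, MFA1, MFA2 and AGA2 are below 0 on both.

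Over all 38 members the opposite strand had a median ratio of 0.37, beside 0.39 over all tested features with at least 20 opposite reads. It was at least 2-fold higher at 39 °C for 7 members, against 10.5% of all features with enough opposite reads, and 2-fold lower for STE2, AGA2 and KAR4, 3 in all, against 1%. Whether opposite reads come from antisense transcripts or from neighbouring genes was not tested.

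Summing both strands changed the counts. It gave 5 members at least 2-fold lower and 1, STE3, higher, against 2.06% and 3.83% of all features counted that way. AGA1 then had a ratio of -0.62, FUS1 -0.85 and PRM1 0.22. In the authors' deposited table of their own comparison, 7 members are called down, 31 flat and none up, where 5.12% of the features with a value are called down and 3.05% up. Those called down in the authors' deposited table are STE2, STE6, BAR1, MFA1, MFA2, AGA2 and FAR1. AGA1 and FUS1, 2-fold lower here, are flat in the authors' deposited table, with its log2 values of -1.81 and -1.19 turned to 39 °C over 30 °C.

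Among the other genes of the pathway, the shares past 2-fold were near those of all features on the lower side, and 3 genes were higher. Of 39 other genes of pheromone processing, polarity, karyogamy and pheromone-induced membrane proteins, 37 were tested, with 1 at least 2-fold lower, 3 higher and 33 within 2-fold, and their median ratio was 0.11. These are 2.70% lower, 8.11% higher and 89.2% within, beside 2.69%, 4.4% and 92.9% of all tested features. The higher ones were PRM10, with 67 and 138 own-strand reads and a ratio of 1.78 (1.36 to 2.23), KAR2 with 1.49 and PTP2 with 1.08. PRM10 overlaps the gene YJL107C in the RefSeq annotation and had 68.5% of its reads on the opposite strand at 30 °C and 46.5% at 39 °C, so its reads are uncertain. KAR2 is the Hsp70 chaperone of the endoplasmic reticulum, which acts in nuclear fusion besides protein folding, and PTP2 is a tyrosine phosphatase of several kinase pathways. The lower one was PRM6, with 61 and 16 reads and a ratio of -1.15. ASG7, an a-specific gene whose product acts on the G protein β subunit after cells have fused, had 439 and 140 reads and a ratio of -0.90. Its opposite strand held 45.1% of the feature's reads at 30 °C and 69.3% at 39 °C.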

How the data were processed

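The authors deposited 4 files of raw read counts per feature, as whole numbers. HTSeq and Bowtie 1.1.1 and the builds sacCer3 and R64 are named in the submitters' processing notes. For the mismatch filter, the strand setting and duplicate removal, no source used here gives a setting. Own-strand reads were taken from the plus-strand file for W names and the minus-strand file for C names, over 6685 features. The 5 summary rows were left out, of which reads in no feature were 22.3% to 24.7% and ambiguous reads 3.92% to 13.3% of each file. All 38 members were found by systematic name in the RefSeq annotation of R64, and their lengths match it. Coordinates were taken from that annotation. The frames hold no UTR, since all 38 lengths are coding length.

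The authors' deposited table gives a log2 ratio, a ranking and difference (scores), and a probability score that exceeds 0.9 for each call. No source used here names its tool. Its log2 ratio runs opposite to the one here: with the sign turned it correlated with the own-strand ratio (Pearson 0.95 across 6162 features, which are not independent). Another 2 columns match no label and were not used.

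Ratios and intervals were computed with Python 3.11.15 and scipy 1.17.1, and tested on simulated independent counts. The simulation held no PCR copies and no spread between cultures, so it checks the calculation alone. Differences of ratios between 2 genes, for 9 pairs, are conditional odds ratios of their reads. Alternatives used edgeR 4.0.16, for TMM factors, and DESeq2 1.42.0, for size factors. Members, role lists and the further pathway list were chosen with earlier results of these data known. All members are named, and of other pathway genes those past 2-fold and the mating-type markers.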

Additional observations from a re-analysis of the deposited data

How the results depend on the processing

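The count of 7 lower members was 7 with TMM factors, DESeq2 size factors, own-strand totals, a pseudocount of 5 and read minimums of 1 or 100, the last over 37 members. It was 8 with the 30 °C library thinned to the depth of the other and 8 with the authors' deposited ratio. Plus-strand genes alone, an alternative chosen after seeing the data, gave 5 lower of 25 members and minus-strand genes alone 2 of 13, against 2.86% and 2.52% of all tested features on those strands. A limit of 1.5-fold gave 12 lower and 1 higher, beside 11.9% and 11.5% of all tested features. Summed strands gave 5 lower and 1 higher. The members' median ratio ran from -0.28 to -0.14, the latter with summed strands. Of single ratios, 11 moved by more than their counting interval with summed strands and 1, that of STE2, with own-strand totals. None of the 7 ratios past 2-fold above changed sign under any of these settings. With summed strands the sign changed for PRM1, from -0.96 to 0.22, and for ratios near no difference. Those were STE14, from -0.04 to 0.08, STE20, from -0.07 to 0.08, and MSG5, from 0.04 to -0.05. Depth limits FIG1, with 60 reads in all. No paired analysis was possible because each temperature has 1 library.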

Other observations

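Genes known to be induced by pheromone in a cells, a list chosen after the values were seen and so given with no test, held all 7 members that were at least 2-fold lower at 39 °C. The 20 such members had a median own-strand ratio of -0.87 and ran from -1.74 to 0.46. Against 3272 of all 6162 tested features, 17 of these members were below 0. FUS2 with 0.44, FIG2 with 0.46 and MSG5 with 0.04 were the 3 above 0. The 18 remaining members had a median of 0.14, with none past 2-fold. Without the a-specific genes, 14 induced members had a median of -0.43, and 3 were 2-fold lower, against 2.69% of all tested features.

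The 9 PRM genes of the further pathway list, which are also pheromone-regulated membrane proteins, had a median ratio of 0.31. Of these, 8 were above 0 and only PRM6 was below it, where 2890 of all 6162 tested features were above 0. The counting interval lay above no change for 4 of the PRM genes, against 31.5% of all tested features, and included no change for 4. Their median other-strand share was 68.5% at 30 °C and 46.5% at 39 °C. At the mating-type locus, named after its values were seen, MATALPHA1 had 13 own-strand reads at 30 °C and 8 at 39 °C. MATALPHA2 had 1669 and 1090, or 226 and 248 CPM per kilobase, above the 74.1 of the median tested feature at 30 °C and unlike the low levels of the α-specific genes. MATALPHA2 shares sequence with the silent mating-type loci and overlaps BUD5 in the RefSeq annotation, and MATALPHA1 overlaps YCR041W, so the reads of both are uncertain.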
